A study of Mus musculus with 2 samples.

Results

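Eomes-negative ILC1-like cells were examined in droplet single-cell RNA-seq libraries of leukocytes sorted from mouse liver tumours. A barcode was taken as a member where it held at least 200 genes and under 15% of its transcripts from mitochondrial genes. It also needed at least 2 transcripts of Ncr1 and Klrb1c together, none of Eomes, and at least 2 of the residency genes Itga1, Cxcr6, Cd200r1 and Il7r together. Barcodes with more than 1 transcript of Cd3d, Cd3e and Cd3g together, or with any of Cd8b1, Cd79a or C1qa, were left out. Transcripts were counted as unique molecular identifiers (UMIs), which count each captured molecule once. The rule found 145 cells among 11350 barcodes kept, 84 in the AKK library and 61 in the PBS library.

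The AKK library came from tumours of C57BL/6 mice given Akkermansia muciniphila by mouth, a mucin-degrading gut bacterium, at 5e9 colony-forming units. The PBS library came from mice given phosphate-buffered saline in its place. All mice ate a methionine- and choline-deficient diet, which causes fatty liver, and carried orthotopic tumours grown from luciferase-labelled RIL-175 cells, a mouse hepatocellular carcinoma line. Dosing started 2 weeks ahead of the diet, tumour cells were implanted after 2 weeks on the diet, and dosing was halted for 6 days after surgery. Dosing went on through the diet and was taken up again until the end. Each group had 1 library, and the sources used here do not give the number of mice in it. Nothing was therefore tested between AKK and PBS, and intervals on shares and ratios cover counting error only. The tumours were implanted from 1 cell line, so they model established growth in a fatty liver and not the origin of a tumour.

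Group 1 innate lymphoid cells comprise natural killer (NK) cells and type 1 innate lymphoid cells (ILC1). Both carry NKp46 (Ncr1) and NK1.1 (Klrb1c), use the transcription factor T-bet and can secrete interferon-gamma. NK cells need Eomes, recirculate through the blood and kill with perforin and granzymes, whereas liver ILC1 lack Eomes, stay in the tissue through CD49a (Itga1) and CXCR6, and carry the death ligand TRAIL (Tnfsf10). In mouse tumours, cells with features of both have been described, and transforming growth factor beta is known to favour the ILC1 side.

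The residency genes were carried unevenly by the ILC1-like cells. Itga1, the collagen-binding integrin subunit CD49a, had a UMI in 63 of 84 AKK and 47 of 61 PBS cells. Il7r, a subunit of the interleukin-7 receptor, had one in 53 and 46 cells. Cxcr6, a chemokine receptor that holds cells in liver sinusoids, was found in 45 AKK and 19 PBS cells, and Cd200r1, an inhibitory receptor, in 28 and 16. Among B cells, which should lack both, 4.82% in AKK and 4.32% in PBS had a UMI of Itga1 and 1.81% (AKK) and 0.617% (PBS) one of Cxcr6. Thinned to 6967 UMIs, 67.9% of the ILC1-like cells of each library had one of Itga1, and 44.9% in AKK and 20.8% in PBS one of Cxcr6. In AKK, 13 cells carried 1 of these 4 genes, 41 carried 2, 26 carried 3 and 4 carried all 4, against 17, 27, 11 and 6 cells in PBS. These genes chose the cells, so the values are a description.

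The identifying receptors lay above the minimum for most members. The sum of Ncr1 and Klrb1c had a median of 6 UMIs per cell in both libraries, and 8 AKK and 10 PBS cells sat at the minimum of 2. The residency sum had medians of 6.5 and 6 UMIs, and 4 AKK and 8 PBS cells held exactly 2. Just outside the rule, 23 AKK and 9 PBS cells had 1 UMI of Ncr1 and Klrb1c, 8 and 0 had 1 residency UMI, 10 and 4 had 1 Eomes UMI, and 4 and 2 had 2 CD3 UMIs. Few cells thus lay just outside the Eomes and CD3 limits compared with the number inside. Inside the rule, 7 AKK and 8 PBS members held exactly 1 CD3 UMI, the most allowed. Members hold no Eomes UMI by the rule, so these counts cannot show how many of them missed one.

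Markers of other lymphocytes were checked against the label. Trac, the T cell receptor alpha constant region, stood at 8.66 CPM in AKK and 8.0 CPM in PBS ILC1-like cells, where CPM relates the UMIs of a gene to all UMIs of that population in that library. CD3-positive T cells held 346 (AKK) and 379 CPM (PBS) of Trac. The ILC3 genes Il22 and Ccr6 and the ILC2 genes Il17rb, Il13 and Il5 had 0 UMIs in the ILC1-like cells of both libraries, which allows up to 2.89 CPM in AKK and 4.0 CPM in PBS (3 counts). The 7 ILC2 markers listed still summed to 172 (AKK) and 119 CPM (PBS), against 137 (AKK) and 169 CPM (PBS) in NK cells. Gata3, which is also on that list, made up most of the sum in ILC1-like cells, with 159 CPM in AKK and 107 CPM in PBS. Of the 8 ILC3 markers listed, Kit, the stem cell factor receptor, made up almost the whole sum, with 388 CPM in AKK and 452 CPM in PBS. Of the 12 T cell markers, 11 had a UMI in AKK and 10 in PBS, and their sum was 1086 (AKK) and 959 CPM (PBS), against 857 (AKK) and 746 CPM (PBS) in NK cells and 2910 (AKK) and 2881 CPM (PBS) in T cells. Trbc1 and Trbc2, constant regions of the T cell receptor beta chain, made up much of that sum, and Trbc1 was at 453 (AKK) and 444 CPM (PBS) in ILC1-like cells and at 438 (AKK) and 384 CPM (PBS) in NK cells.

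Transcripts of myeloid cells were present in the ILC1-like cells of both libraries, and in AKK a few cells held most of them. The 6 neutrophil markers summed to 2724 CPM in AKK and 1195 CPM in PBS ILC1-like cells, and to 1303 (AKK) and 974 CPM (PBS) in NK cells. In AKK, 1 cell held 864 of the 1228 UMIs of S100a8, a calcium-binding protein of neutrophils, while in PBS the highest cell held 16 of 261. The 6 macrophage and monocyte markers summed to 403 CPM in AKK and 153 CPM in PBS ILC1-like cells, against 123 (AKK) and 160 CPM (PBS) in NK cells. Lyz2, lysozyme of myeloid cells, had 347 UMIs in AKK, of which 1 cell held 158. Cells with at least 5 UMIs of 6 myeloid genes numbered 7 in AKK and 5 in PBS.

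The libraries held 74495998 UMIs in 6610 barcodes for AKK and 64731604 UMIs in 5088 barcodes for PBS, and 8 barcodes occurred in both, none of them a member. The ILC1-like cells were deep, with medians of 11349.5 UMIs in AKK and 11195 in PBS, against 9070 and 9100 in NK cells. A doublet score would have removed 5 AKK and 2 PBS members and was applied only as an alternative. Eomes-positive NK cells were chosen by the same limits but with at least 1 Eomes UMI and no condition on the residency genes, which gave 267 AKK and 97 PBS cells.

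ILC1-like cells made up close shares of the leukocytes of both libraries, while NK cells took a larger share in AKK. The ILC1-like share was 1.29% of kept barcodes in AKK (exact 95% binomial interval 1.03 to 1.59) and 1.26% in PBS (0.967 to 1.62). The difference of 0.0268 percentage points had a Newcombe interval of -0.406 to 0.439. These cell counts leave differences within those bounds possible in either direction. Eomes-positive NK cells were 4.10% of barcodes in AKK and 2.01% in PBS, a difference of 2.09 points (1.46 to 2.71). The larger share in AKK was not particular to NK cells. CD3-positive T cells were 11.5% in AKK and 6.39% in PBS, a difference of 5.13 points (4.09 to 6.16). B cells were 5.09% and 3.35%, a difference of 1.74 points (0.997 to 2.48).

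Within the pool of ILC1-like and NK cells, the ILC1-like share was therefore lower in AKK, at 23.9% (84 of 351 cells, 19.6 to 28.7), against 38.6% in PBS (61 of 158 cells, 31 to 46.7). The difference was -14.7 points (-23.5 to -6.03). AKK held 3.18 NK cells per ILC1-like cell and PBS held 1.59. When each cell was thinned to 3000 UMIs before the rule was applied, the shares were 23.7% in AKK and 31.3% in PBS, and the interval of the difference, -20.8 to 4.35 points, included 0. The rule reads single UMIs, so its shares depend on depth, and no replicate shows how far such shares vary between mice.

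**Figure D1:**
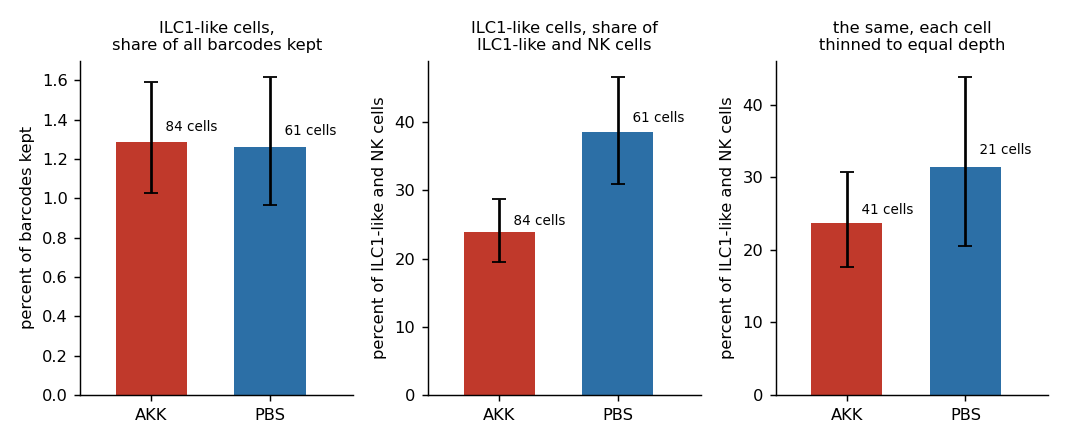
Share of ILC1-like cells in percent of kept barcodes (left), in percent of ILC1-like and NK cells (middle), and in the same pool after thinning each cell to 3000 UMIs (right), for AKK and PBS. Bars are shares and error bars exact 95% binomial intervals; the shares of barcodes are 1.29% and 1.26%, and the shares of the pool are 23.9% and 38.6%.

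ILC1-like cells were then compared with Eomes-positive NK cells inside each library, which asks how the Eomes-negative cells differ from the killer cells beside them. UMIs were summed per library and population, and the 4 sums were fitted with edgeR's quasi-likelihood test with library as a block and Benjamini-Hochberg adjustment over all genes tested. Of 8284 genes, 398 (4.8%) were higher and 485 (5.85%) were lower in ILC1-like cells at an adjusted p under 0.05. The genes of the rule are left out of what follows. The fit has 1 residual degree of freedom among samples. With library as a block, its p-values rest on how the difference between the populations varied between the 2 libraries. They also rest on the spread shared across genes. The 2 libraries differ in treatment as well, which cannot be told apart from that variation.

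Genes known for ILC1 that the rule did not use were higher in the ILC1-like cells: 9 of 11 tested rose and none fell, with a median log2 ratio of 1.5 (CPM + 5), against 0.04 over all genes. Inpp4b, an inositol phosphatase (chr8:81342556-82127914 on the plus strand of GRCm38, protein-coding), stood at 1112 CPM in AKK and 947 CPM in PBS ILC1-like cells, against 62.7 (AKK) and 107 CPM (PBS) in NK cells, with a log2 fold change of 3.63 ± 0.16 (SE) and an adjusted p of 8.55e-22 by edgeR. The ILC1-like sum was the higher one in both libraries. T cells held more, 1477 (AKK) and 1768 CPM (PBS) of Inpp4b. Tmem176b, an MS4A-like membrane protein, was at 98.2 and 161 CPM in AKK and PBS ILC1-like cells, against 8.80 (AKK) and 9.18 CPM (PBS) in NK cells (log2 3.67 ± 0.28, edgeR adjusted p 4.48e-14).

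Its neighbour Tmem176a and Gpr183, an oxysterol receptor that guides cell position, followed the same direction. Tnfsf10, which encodes TRAIL, was at 94.3 and 77.4 CPM in AKK and PBS ILC1-like cells, against 21.4 (AKK) and 33.7 CPM (PBS) in NK cells (log2 1.68 ± 0.26, edgeR adjusted p 3.95e-06). Rgs1, a brake on chemokine receptor signals in resident lymphocytes, was at 1622 (AKK) and 1240.3 CPM (PBS) against 881 (AKK) and 694 CPM (PBS) in NK cells. Il21r, Il2ra and Ltb made up the rest of the 9. Cd69 was at 319 (AKK) and 300.1 CPM (PBS) in ILC1-like cells, against 251 (AKK) and 321 CPM (PBS) in NK cells, and Sdc4 did not pass either, with edgeR adjusted p-values of 0.844 and 0.611. Zfp683, which encodes Hobit, a factor that liver ILC1 depend on, was too low to be tested, with a UMI in 3.57% of AKK and 6.56% of PBS ILC1-like cells (2.56% (AKK) and 3.77% (PBS) after thinning to 6967 UMIs) and in 0% of NK and B cells of both libraries.

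Genes of mature NK cells went the other way, and 14 of 16 were lower in ILC1-like cells, with none higher and a median log2 ratio of -2.01. Itga2, the integrin CD49b of NK cells, was at 78.9 CPM in AKK and 40.0 CPM in PBS ILC1-like cells, against 441 (AKK) and 322 CPM (PBS) in NK cells (log2 -2.74 ± 0.19, edgeR adjusted p 1.99e-15). Itgam, or CD11b, which marks mature NK cells, was at 73.2 (AKK) and 24.0 CPM (PBS) against 219 (AKK) and 167 CPM (PBS) in NK cells. The transcription factors Irf8, Klf2 and Zeb2, all known in NK cell maturation or egress, fell as well. Ly6c2 and Cx3cr1 were the members that did not pass. For Ly6c2 the libraries disagreed, with 126 CPM in AKK and 20 CPM in PBS ILC1-like cells against 84.5 (AKK) and 129 CPM (PBS) in NK cells.

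**Figure D2:**
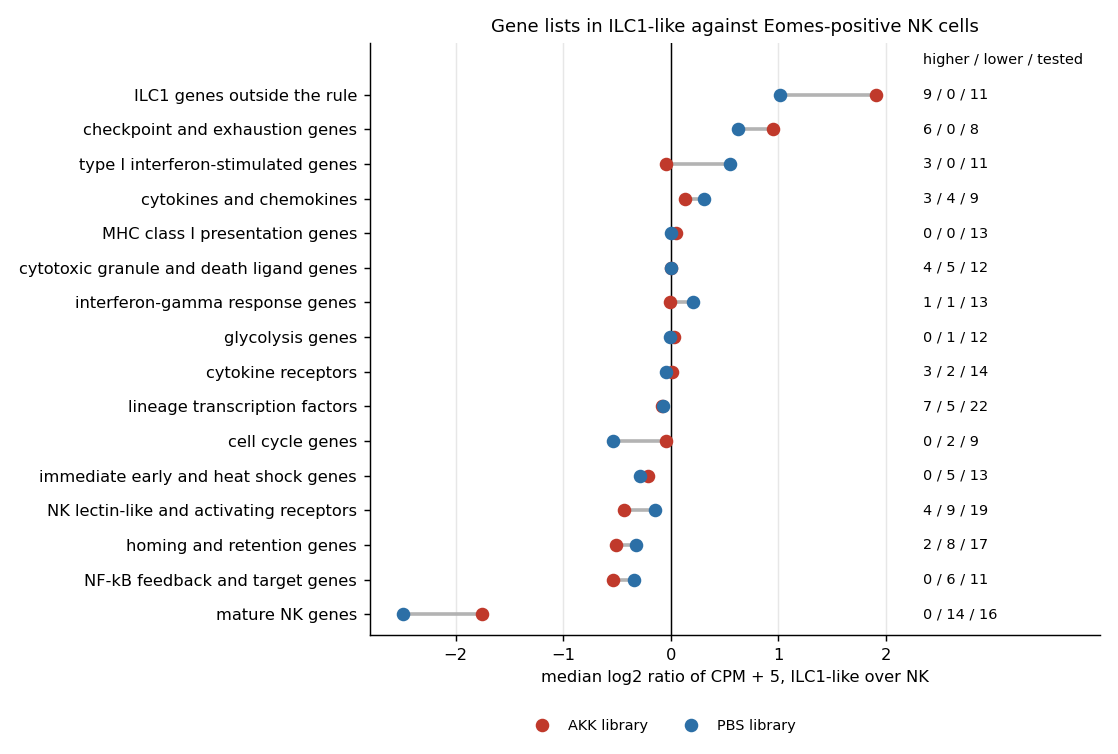
Median log2 ratio of CPM + 5 over each gene list, ILC1-like over Eomes-positive NK cells, in the AKK and the PBS library (points, joined by a grey bar), with the number of list members higher, lower and tested by edgeR at the right. The ILC1 genes lie at 1.91 in AKK and 1.02 in PBS and the mature NK genes at -1.76 and -2.49, while most other lists lie near 0.

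Among NK receptors, ILC1-like cells almost lacked the Ly49 family. Of 19 lectin-like and activating receptors tested, 4 were higher and 9 lower. Klra8, which encodes the activating receptor Ly49H (chr6:130115226-130129898, minus strand), had 2 UMIs in AKK and 9 in PBS ILC1-like cells, or 1.93 (AKK) and 12 CPM (PBS), against 666 (AKK) and 532 CPM (PBS) in NK cells (log2 -6.63 ± 0.28, edgeR adjusted p 1.62e-22). The log2 fold changes of Klra4, Klra7, Klra9 and Klra3 were -4.96, -5.18, -3.73 and -2.53, and Klra1 had 1 UMI in all ILC1-like cells. Ly49 genes are close paralogs, so reads can be split between them and the single values are less certain than their common direction. Klri2 and Klre1, partners in another lectin-like receptor, and Klrk1, or NKG2D, were lower by smaller amounts.

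Other lectin-like and activating receptors were higher. Klrb1b, an inhibitory receptor of the NKR-P1 family, was at 965 CPM in AKK and 962 CPM in PBS ILC1-like cells, against 403 (AKK) and 401 CPM (PBS) in NK cells (log2 1.21 ± 0.12, edgeR adjusted p 4.73e-11). Klrc1, the inhibitory NKG2A, was at 532 (AKK) and 393 CPM (PBS) against 282 (AKK) and 164 CPM (PBS) in NK cells. The adhesion receptor Cd226, or DNAM-1, was at 346 (AKK) and 216 CPM (PBS) against 101 (AKK) and 76.5 CPM (PBS) in NK cells, and Cd160 at 132 (AKK) and 100.02 CPM (PBS) against 36.0 (AKK) and 36.7 CPM (PBS) in NK cells. Klrd1, the shared partner of the NKG2 receptors, stood at 494 (AKK) and 484 CPM (PBS) against 450.2 (AKK) and 535 CPM (PBS) in NK cells (edgeR adjusted p 0.894).

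Transcription factors went in both directions, and T-bet did not pass the test. Of 22 lineage factors tested, 7 were higher and 5 lower. Rora, the retinoid-related receptor known from ILC2 and other innate lymphoid cells (chr9:68653786-69388246, plus strand), was at 1322 CPM in AKK and 1400.3 CPM in PBS ILC1-like cells, against 162 (AKK) and 274 CPM (PBS) in NK cells (log2 2.65 ± 0.13, edgeR adjusted p 1.93e-20). Ikzf2, which encodes Helios, was at 1031 (AKK) and 874 CPM (PBS) against 178 (AKK) and 107 CPM (PBS) in NK cells (log2 2.70 ± 0.14, edgeR adjusted p 1.48e-19). Bcl11b, Zbtb16 (PLZF, a factor of innate lymphoid precursors), Ahr, Maf and Tox were also higher. Irf8 was at 475 (AKK) and 400.1 CPM (PBS) against 1135 (AKK) and 959.9 CPM (PBS) in NK cells, and Klf2, which drives S1pr1, at 407 (AKK) and 275 CPM (PBS) against 923 (AKK) and 907 CPM (PBS) in NK cells. Tbx21, the gene of T-bet, was at 314 (AKK) and 343 CPM (PBS) in ILC1-like cells, against 469 (AKK) and 358 CPM (PBS) in NK cells, with an edgeR adjusted p of 0.0875. It had a UMI in 79 of 84 AKK and 50 of 61 PBS ILC1-like cells, and after thinning to 6967 UMIs in 80.8% (AKK) and 77.4% (PBS), against 3.74% (AKK) and 5.51% (PBS) of B cells.

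Rora also had a UMI in 88.5% of AKK and 90.6% of PBS ILC1-like cells thinned to 6967 UMIs (90.5% (AKK) and 86.9% (PBS) unthinned), against 35.7% (AKK) and 41.5% (PBS) of thinned NK cells and 8.88% (AKK) and 7.87% (PBS) of thinned B cells, which should lack it. Kit had one in 64.1% (AKK) and 79.2% (PBS) of thinned ILC1-like cells (69.0% (AKK) and 77.0% (PBS) unthinned), against 21.7% (AKK) and 30.5% (PBS) of thinned NK cells and 2.80% (AKK) and 2.36% (PBS) of B cells. Both genes stood above the share seen in B cells. T cells had a Rora UMI in 83.2% (AKK) and 85.1% (PBS) of thinned cells and a Kit UMI in 6.38% (AKK) and 15.7% (PBS), so Kit was the one of the pair that was low in T cells. The median depth of B cells was 8212 UMIs in AKK and 8961 in PBS. Thinning left out 6 AKK and 8 PBS ILC1-like cells, 60 and 15 NK cells, and 118 and 35 B cells.

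The cytotoxic genes went in both directions. Of 12 tested, 4 were higher and 5 lower in ILC1-like cells. Gzma, the most abundant granzyme of the NK cells here, was at 536 CPM in AKK and 309 CPM in PBS ILC1-like cells, against 2577 (AKK) and 2296 CPM (PBS) in NK cells (log2 -2.61 ± 0.11, edgeR adjusted p 2.33e-22). Prf1, the pore-forming perforin, was at 136 (AKK) and 69.3 CPM (PBS) against 557 (AKK) and 367 CPM (PBS) in NK cells (log2 -2.24 ± 0.16, edgeR adjusted p 1.99e-14). Gzmc (chr14:56231441-56234656, minus strand), a granzyme of strongly activated lymphocytes, was instead at 719 (AKK) and 553 CPM (PBS) against 75.0 (AKK) and 38.8 CPM (PBS) in NK cells (log2 3.43 ± 0.17, edgeR adjusted p 2.58e-20). Gzmb was at 599 (AKK) and 377 CPM (PBS) against 304 (AKK) and 329 CPM (PBS) in NK cells, so its log2 ratio was 0.97 in AKK and 0.19 in PBS.

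Gzmd followed Gzmc with few UMIs, 17 in AKK and 14 in PBS ILC1-like cells. Gzmc to Gzmf are neighbouring paralogs, and reads can be divided among them. Nkg7, a granule membrane protein, Serpinb9, a granzyme B inhibitor, and Fasl, the FAS ligand, were lower. The list median was 0.05 with all cells and -0.25 without the cells with myeloid transcripts.

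**Figure D3:**
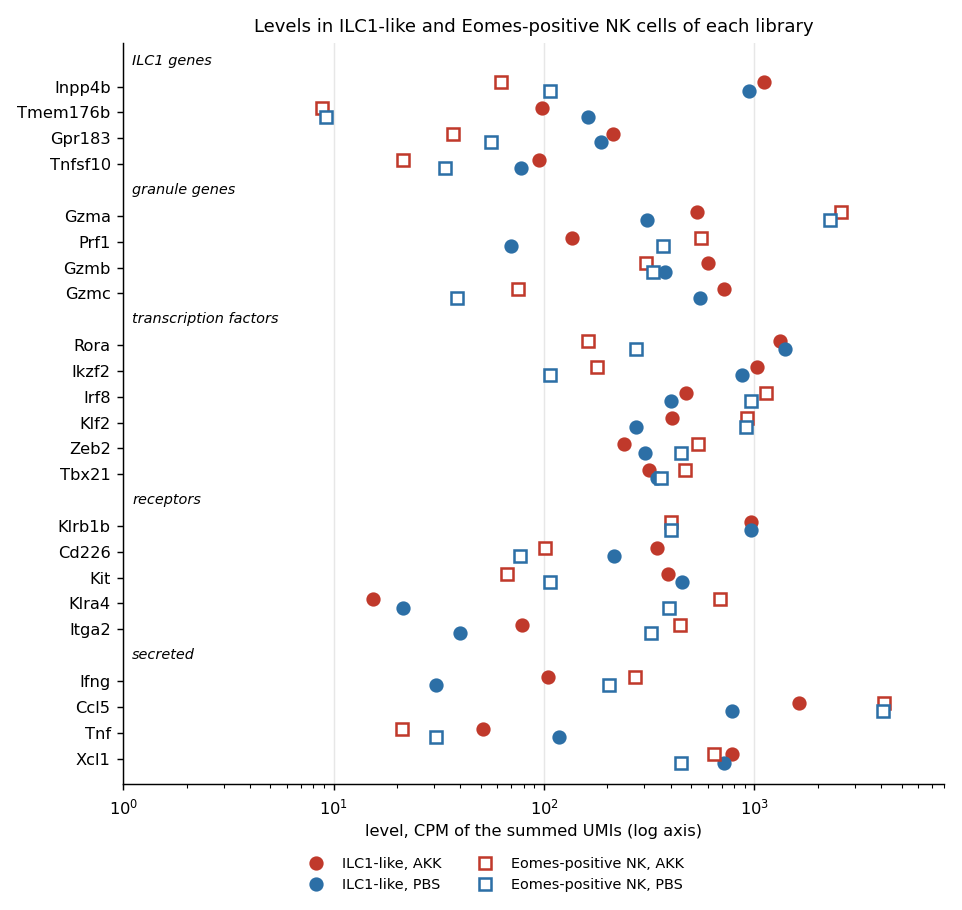
Level in CPM (log axis) of 23 genes in the summed UMIs of ILC1-like cells (filled circles) and Eomes-positive NK cells (open squares) of the AKK and PBS libraries. Filled and open symbols are apart in both libraries for Inpp4b, Gzma, Gzmc, Rora and Klra4, and meet for Tbx21, at 314 and 343 CPM against 469 and 358 CPM.

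Effector cytokines and chemokines went in both directions: of 9 tested, 4 fell and 3 rose, and the median log2 ratio of ILC1-like over NK cells was 0.22. Ifng was at 104 CPM in AKK and 30.7 CPM in PBS ILC1-like cells, against 269 (AKK) and 203 CPM (PBS) in NK cells (log2 -1.92 ± 0.22, edgeR adjusted p 4.92e-09). Ccl5, a chemokine that draws T cells and macrophages, was at 1619.9 (AKK) and 779 CPM (PBS) against 4149 (AKK) and 4077 CPM (PBS) in NK cells (log2 -1.91 ± 0.12, edgeR adjusted p 3.90e-17), and Ccl3 and Ccl4 fell too, although 1 PBS cell held 265 of the 404 Ccl4 UMIs there. Tnf was higher, at 51.0 (AKK) and 117 CPM (PBS) against 21.0 (AKK) and 30.6 CPM (PBS) in NK cells, and so were Ltb and Xcl1, a chemokine for cross-presenting dendritic cells. In PBS 1 cell held 47 of the 88 Tnf UMIs, and Tnf no longer passed with DESeq2 or without the cells with myeloid transcripts. Tgfb1 was at 536 (AKK) and 895 CPM (PBS) against 536 (AKK) and 888 CPM (PBS) in NK cells, so the libraries differed and the populations did not pass (edgeR adjusted p 0.893).

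Of 14 cytokine receptors tested, Il21r, Il2ra and Tgfbr2 were higher and Il18rap and Il10ra lower. Tgfbr2, the receptor chain that binds transforming growth factor beta, was at 480.3 and 465 CPM in AKK and PBS ILC1-like cells, against 291 (AKK) and 306 CPM (PBS) in NK cells (log2 0.62 ± 0.14, edgeR adjusted p 0.00102). Il2rb, the chain shared by the receptors of interleukin 2 and interleukin 15, was at 1459 (AKK) and 1269.6 CPM (PBS) against 1566 (AKK) and 1288 CPM (PBS) in NK cells. Checkpoint and exhaustion genes were higher: 6 of 8 tested rose and none fell, with a median of 0.82. Lag3 was at 52.9 (AKK) and 77.4 CPM (PBS) against 7.27 (AKK) and 18.4 CPM (PBS) in NK cells (log2 2.42 ± 0.32, edgeR adjusted p 1.40e-07), and Ctla4 at 122 (AKK) and 119 CPM (PBS) against 36.0 (AKK) and 56.1 CPM (PBS) in NK cells. Nt5e, the adenosine-producing CD73, was at 211 (AKK) and 309 CPM (PBS) against 51.6 (AKK) and 198 CPM (PBS) in NK cells, so most of its difference lay in AKK. Cish, a brake on interleukin-15 signals, Cd96 and Tox were the others, and Pdcd1 and Havcr2 were too low to be tested.

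Egress and homing genes were lower in 8 of 17 cases and higher in 2. S1pr1, the receptor that lets lymphocytes leave tissue, was at 29.8 CPM in AKK and 2.67 CPM in PBS ILC1-like cells, against 78.8 (AKK) and 44.9 CPM (PBS) in NK cells (log2 -1.99 ± 0.34, edgeR adjusted p 1.94e-05). S1pr5 had 1 UMI in all ILC1-like cells. Ccr2, Cxcr4, Itga4 and Itgb2 fell, and the regulators Rgs1 and Rgs2 rose. Itgae, which encodes CD103, was at 7.70 (AKK) and 10.7 CPM (PBS) against 17.2 (AKK) and 9.18 CPM (PBS) in NK cells and did not pass.

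Of 11 NF-kB feedback and target genes, 6 fell and none rose, with a median of -0.45, and Birc3, an inhibitor of apoptosis, was at 338 and 343 CPM in AKK and PBS ILC1-like cells against 544 (AKK) and 539 CPM (PBS) in NK cells. Of 13 immediate early genes, 5 fell, among them Dusp1, a phosphatase of stress kinases. Of 13 genes of MHC class I presentation, none passed in either direction. Of 13 interferon-gamma response genes, 1 was higher and 1, Gbp7, was lower. Of 11 type I interferon-stimulated genes, Ifih1, Oasl1 and Isg15 rose, and Ifih1 and Isg15 did not pass without the cells with myeloid transcripts. Of 9 cell cycle genes, Mki67 and Mcm6 fell, with 16 and 3 UMIs of Mki67 in AKK and PBS ILC1-like cells. Of 12 glycolysis genes, Pfkp alone passed and was lower.

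Over all genes, the largest increases were in P2rx7, Tcrg-C4, Zmat4, Tmem176b, Sema6d, Inpp4b, Tmem176a, Gzmc, Xkr6 and St6galnac3. St6galnac3, a sialyltransferase (chr3:153198266-153725174, minus strand), was at 2014 CPM in AKK and 2335 CPM in PBS ILC1-like cells, against 145 (AKK) and 283 CPM (PBS) in NK cells (log2 3.38 ± 0.12, edgeR adjusted p 2.86e-24), the smallest p of the comparison, and had a UMI in 82 of 84 and 58 of 61 cells. T cells held 1165 (AKK) and 1849 CPM (PBS) of it. P2rx7, the receptor for extracellular ATP, was at 62.6 (AKK) and 48.0 CPM (PBS) against 1.15 (AKK) and 4.08 CPM (PBS) in NK cells. Zmat4, a zinc finger gene, was at 263 (AKK) and 213 CPM (PBS) against 12.6 (AKK) and 7.14 CPM (PBS) in NK cells and at 2.67 (AKK) and 1.17 CPM (PBS) in T cells, but only 28 AKK and 23 PBS ILC1-like cells had a UMI. Tcrg-C4, a constant region of the T cell receptor gamma chain, was at 125 (AKK) and 70.7 CPM (PBS) against 3.44 (AKK) and 5.10 CPM (PBS) in NK cells and 16 (AKK) and 9.10 CPM (PBS) in T cells. Among these populations its level was highest in cells chosen for nearly lacking CD3.

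The largest decreases were in Klra8, D5Ertd615e, Khdc1a, Serpinb9b, Klra7, Klra4, Cmah, Mef2c, Klra9 and Angpt1. Mef2c, a transcription factor, was at 10.6 CPM in AKK and 14.7 CPM in PBS ILC1-like cells, against 201 (AKK) and 168 CPM (PBS) in NK cells, and Angpt1, a ligand for vessel cells, at 17.3 (AKK) and 12 CPM (PBS) against 194 (AKK) and 89.8 CPM (PBS) in NK cells. Cmah, which makes a sialic acid, was at 4.81 (AKK) and 4.0 CPM (PBS) against 115 (AKK) and 14.3 CPM (PBS) in NK cells, so its difference lay mainly in AKK. The genes called depended on the tool and on the rule: DESeq2 called 112 higher and 131 lower, all of them among edgeR's. Single genes were recomputed only for the 77 named by the rule for this comparison, which leaves out Gzmb, Nkg7, Klrk1, Itgb2 and others. Of those 77, the genes named above that no longer passed with DESeq2 were Ltb, Il2ra, Tgfbr2, Il10ra, Fasl, Tnf, Nt5e, Cd96, Gbp7, Ifih1, Oasl1, Isg15, Mki67 and Mcm6. The rule without Il7r ended the calls of Ccl3, Ccl4 and Cish as well. A residency sum of at least 3 gave 224 higher and 305 lower. Neutrophil and macrophage transcripts moved with the comparison, since S100a8, S100a9, Retnlg and Lyz2 were called higher in ILC1-like cells, mainly through AKK, and their part in other differences was not tested beyond leaving out the cells that held most of them, which gave 337 higher and 455 lower.

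The ILC1-like cells were not uniform, and 1 AKK cell and 5 PBS cells carried both Gzma and Gzmc at 3 or more UMIs. Taking at least 3 UMIs as carrying a granzyme, 16 AKK and 7 PBS cells carried Gzma alone, 19 and 16 carried Gzmc alone, 1 and 5 carried both, and 48 and 33 carried neither. Of the Gzma carriers, 1 of 17 in AKK and 5 of 12 in PBS thus also carried Gzmc, which 20 of all 84 AKK cells and 21 of all 61 PBS cells carried. Cells with 1 or 2 UMIs, next to that limit, numbered 8 AKK and 1 PBS for Gzma, and 7 and 12 for Gzmc. The Gzmc cells were the deeper ones, with medians of 15894 UMIs in AKK and 15502 in PBS, against 9041 and 6968 in the Gzma cells. After thinning to 6967 UMIs, 11 AKK and 4 PBS cells carried Gzma alone, 15 and 12 Gzmc alone, 1 and 5 both, and 51 and 32 neither.

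The granzyme groups differed in other genes, given here as a description of cells grouped after their values were seen. Gzmc cells held 77.2 CPM of Klf2 in AKK and 90.0 CPM in PBS, against 577 (AKK) and 484 CPM (PBS) in Gzma cells. Ccl5 was at 251 (AKK) and 189 CPM (PBS) in Gzmc cells and at 4529 (AKK) and 1992 CPM (PBS) in Gzma cells. Kit was at 576 (AKK) and 495 CPM (PBS) in Gzmc cells and at 150.4 (AKK) and 130.3 CPM (PBS) in Gzma cells, and Rora and Ikzf2 were also higher in the Gzmc cells of both libraries. The Gzma cells of AKK held 337 CPM of Itga2 and 421 CPM of Prf1, nearer to the NK cells, whereas those of PBS held 37.2 CPM of Itga2 and 112 CPM of Prf1. Itga1 was at 409 (AKK) and 614 CPM (PBS) in Gzma cells and at 557 (AKK) and 324 CPM (PBS) in Gzmc cells, so the residency gene did not follow the split. Few cells carried most of each granzyme: the 9 AKK cells with the most Gzmc held 85.1% of its UMIs, and the top 7 PBS cells 69.2%.

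**Figure D4:**
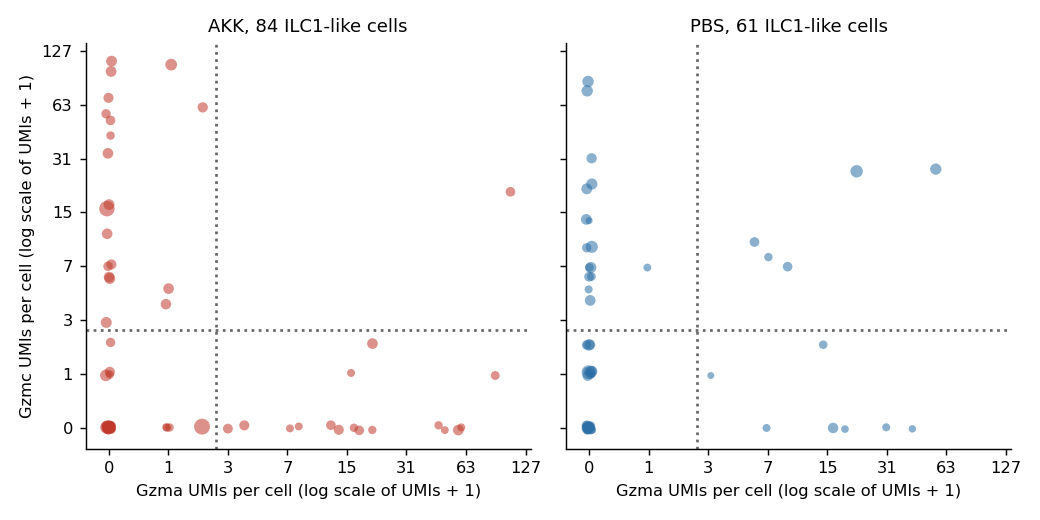
Gzma UMIs (x axis) against Gzmc UMIs (y axis), both on a log scale of UMIs + 1, in each ILC1-like cell of the AKK and the PBS library; points are shifted slightly at random, their area grows with the UMIs of the cell, and dotted lines mark the limit of 3 UMIs. In AKK 1 of 17 and in PBS 5 of 12 cells above the Gzma limit also lie above the Gzmc limit.

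Cells on both sides of the rule were lined up to see where the limits fell. Eomes-positive cells with at least 2 residency UMIs numbered 29 in AKK and 18 in PBS. Summed together, they held intermediate levels of several genes, though not of every gene in PBS. Rora was at 356 (AKK) and 462 CPM (PBS) in them, against 1322 (AKK) and 1400.3 CPM (PBS) in ILC1-like cells and 131 (AKK) and 205 CPM (PBS) in Eomes-positive cells with at most 1 residency UMI. Inpp4b was at 221 (AKK) and 304 CPM (PBS) in them, against 37.3 (AKK) and 33.6 CPM (PBS) in the Eomes-positive cells with few residency UMIs, and Gzma at 1210 (AKK) and 653 CPM (PBS), against 2797 (AKK) and 2910 CPM (PBS) in those with few residency UMIs. In PBS, Klra8 was at 548 CPM in them, 527 CPM in those with few residency UMIs and 12 CPM in ILC1-like cells. Tmem176b in PBS was at 3.75, 11.2 and 161 CPM in the same order. The Eomes-positive cells with at least 2 residency UMIs were themselves mixed. In AKK, Rora was at 887 CPM in the 10 with 1 Eomes UMI and at 140 CPM in the 19 with more. In PBS the order was turned, at 205 CPM in 4 cells and 542 CPM in 14 cells. Inpp4b was higher in those with 1 Eomes UMI, at 363 against 163 CPM in AKK and 473 against 251 CPM in PBS. Cells without Eomes and without a residency UMI, 39 in AKK and 15 in PBS, held 1912 (AKK) and 2523 CPM (PBS) of Gzma, 240 (AKK) and 552 CPM (PBS) of Klra8 and 301 (AKK) and 25.5 CPM (PBS) of Inpp4b. Those cells had median depths of 6307 and 8441 UMIs, below the ILC1-like cells, and the part of depth in their values was not tested. Among the ILC1-like cells, 5 in AKK and 8 in PBS owed their residency UMIs to Il7r alone, and these held 1635 (AKK) and 2209 CPM (PBS) of Rora and 1043 (AKK) and 1497 CPM (PBS) of Ikzf2.

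The ILC1-like cells of the AKK and PBS libraries were then set against each other as the ratio of AKK over PBS. With 1 library a group there was no test, and a gene is called here where the ratio was at least 2 or at most 0.5. Of 7906 genes with at least 20 UMIs in the ILC1-like sums, 342 (4.33%) were at least 2-fold higher and 263 (3.33%) at least 2-fold lower in AKK. The counting interval lay above 1 for 830 genes (10.5%) and below 1 for 715 (9.04%). The median log2 ratio of all genes was 0.04.

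Genes of mature NK cells were higher in AKK ILC1-like cells. Of 11 measured, 9 had a counting interval above 1 and 1 below, 4 were at least 2-fold higher, and the median log2 ratio was 0.90, against 0.30 in NK cells and 0.16 in T cells. Ly6c2, a surface protein of matured lymphocytes and monocytes, was at 126 CPM in AKK and 20 CPM in PBS, a ratio of 6.30 (3.68 to 11.6), and had a UMI in 28 of 84 and 13 of 61 cells. In NK cells its ratio was 0.658 (0.526 to 0.825) and in T cells 1.58. After thinning, 21.8% of AKK and 15.1% of PBS ILC1-like cells held a Ly6c2 UMI, below the 33.2% (AKK) and 22.0% (PBS) of B cells, so no expression is read from that share. S1pr1 was at 29.8 CPM in AKK, with 31 UMIs in 16 cells, and at 2.67 CPM in PBS, with 2 UMIs in 2 cells, a ratio of 11.2 (2.85 to 96.5), against 1.76 in NK cells. Itgam had a ratio of 3.05 (1.80 to 5.41), Itga2 1.97 (1.28 to 3.11) and Klf2 1.48 (1.25 to 1.76). Zeb2 was the member below 1, at 239 (AKK) and 303 CPM (PBS), and its direction turned in 3 alternatives.

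Several effector genes were also higher in AKK ILC1-like cells, by level. Ifng was at 104 CPM in AKK and 30.7 CPM in PBS ILC1-like cells, a ratio of 3.39 (2.15 to 5.57), against 1.33 (1.13 to 1.56) in NK cells and 1.44 in T cells. After thinning, 35.9% of AKK (25.3 to 47.6) and 9.43% of PBS ILC1-like cells (3.13 to 20.7) held an Ifng UMI, and 45.2% (AKK) and 21.3% (PBS) did unthinned, while B cells stood at 0.467% (AKK) and 0.787% (PBS) thinned. Ccl5 was at 1619.9 (AKK) and 779 CPM (PBS), a ratio of 2.08 (1.89 to 2.29), whereas NK cells stood at 1.02. Gzma had a ratio of 1.73 (1.48 to 2.03), Prf1 of 1.96 (1.41 to 2.74) and Gzmb of 1.59 (1.38 to 1.83), against 1.12, 1.52 and 0.923 in NK cells. Ccl5 and Prf1 were higher in the Gzma cells than in the Gzmc cells of both libraries, and Gzma cells were 16 of 84 in AKK and 7 of 61 in PBS; the part of their number in the ratios was not tested.

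Gzmc was higher in AKK by level, while the share of cells that held it gave no order. Its level was 719 CPM in AKK and 553 CPM in PBS, a ratio of 1.30 (1.15 to 1.47). The log2 ratio of 0.38 was 0.91 without the cells with myeloid transcripts. In AKK, 9 cells held 85.1% of its UMIs. After thinning, 30.8% of AKK (20.8 to 42.2) and 50.9% of PBS ILC1-like cells (36.8 to 64.9) held a UMI, and 32.1% (AKK) and 54.1% (PBS) did unthinned. Thinned B cells stood at 0.467% (AKK) and 2.36% (PBS). The thinned intervals of the ILC1-like cells overlapped, so no order is read from their shares. Gzmf had 0 UMIs in AKK and 34 in PBS, of which 27 lay in 1 cell.

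Tgfb1, Tox and Ccr2 had like ratios in ILC1-like and NK cells, while the interval of Cxcr3 lay above 1 in ILC1-like but not in NK cells. Tgfb1 was lower in AKK ILC1-like cells, at 536 CPM against 895 CPM in PBS (ratio 0.599, 0.534 to 0.671), and its ratio was 0.604 in NK cells and 0.677 in T cells. Tox was at 909.6 (AKK) and 396 CPM (PBS), a ratio of 2.30 (2.01 to 2.63), and 1.99 in NK cells, but 0.842 in T cells. Ccr2, the receptor of monocyte-attracting chemokines, had a ratio of 2.22 (1.62 to 3.09) and of 2.11 in NK cells. Cxcr3, the receptor of interferon-induced chemokines, was at 54.9 (AKK) and 24.0 CPM (PBS) in ILC1-like cells (2.29, 1.33 to 4.13) and had a ratio of 1.05 (0.631 to 1.83) in NK cells. Of the rule's own genes, Cxcr6 was at 105 CPM in AKK and 49.3 CPM in PBS, and Ncr1 at 219 (AKK) and 132 CPM (PBS).

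ILC1 genes outside the rule showed no common shift: 3 of 11 had an interval above 1, 2 below, none was past 2-fold, and the median was 0.19, against -0.55 in NK cells. Klrb1b was at 965 (AKK) and 962 CPM (PBS), Rora at 1322 (AKK) and 1400.3 CPM (PBS) and Cish at 214 (AKK) and 213 CPM (PBS). Tmem176b was lower in AKK (0.608, 0.463 to 0.798). Sema6d, a semaphorin that set the ILC1-like cells apart from NK cells, was at 306 (AKK) and 572 CPM (PBS) (0.535, 0.461 to 0.620), and its ratio was 0.320 in NK cells and 0.329 in T cells. Of 8 checkpoint genes measured, Tox was the one past 2-fold and the median was 0.03.

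**Figure D5:**
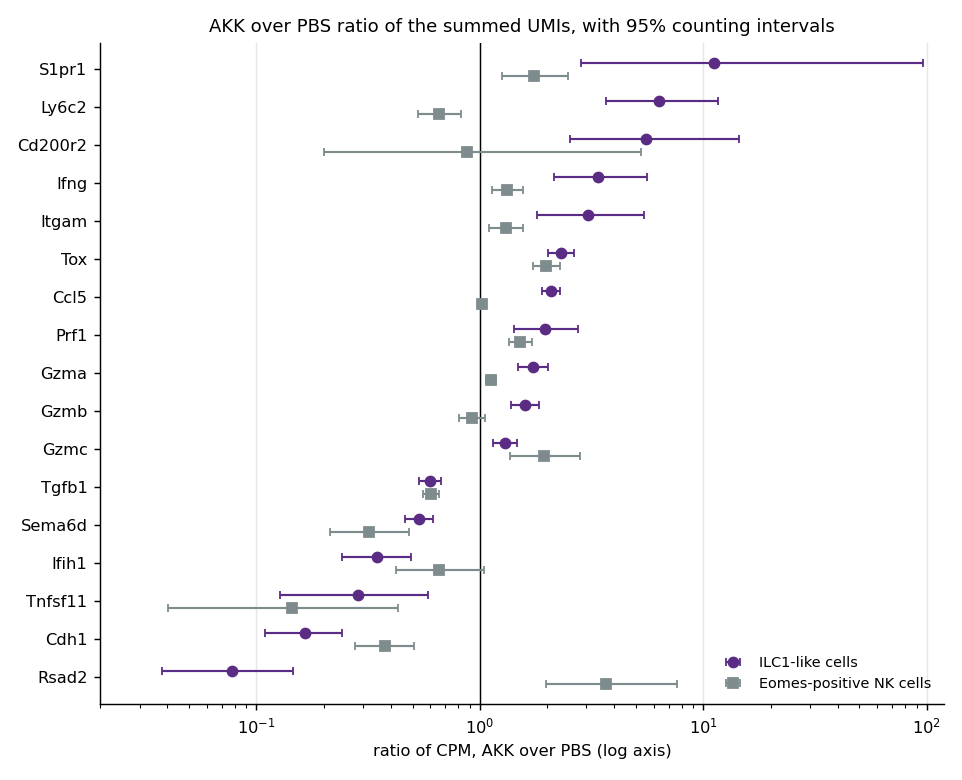
Ratio of CPM, AKK over PBS (log axis), of 17 genes in ILC1-like cells (circles) and Eomes-positive NK cells (squares), with exact 95% counting intervals; the line marks 1. Ly6c2 (6.30 in ILC1-like and 0.658 in NK cells) and Rsad2 (0.0778 and 3.68) point opposite ways in the populations, while Tgfb1 (0.599 and 0.604) lies together.

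Type I interferon-stimulated genes were lower in AKK ILC1-like cells, and a few PBS cells carried most of the difference. Of 12 measured, 10 had a ratio below 1, 8 were at most 0.5, and the median was -0.90, against 0.03 in NK cells. Rsad2, the antiviral enzyme viperin, was at 10.6 CPM in AKK and 136 CPM in PBS, a ratio of 0.0778 (0.0377 to 0.145), and 1 PBS cell held 53 of its 102 UMIs. Ifih1, the double-stranded RNA sensor MDA5, was at 48.1 (AKK) and 139 CPM (PBS) (0.347, 0.243 to 0.491). All 17 listed genes found in the files summed to 268 CPM in AKK and 635 CPM in PBS. The median cell held 2 UMIs of them in each library, and without the 3 highest cells of each library the sums were 205 (AKK) and 223 CPM (PBS). Without the cells with myeloid transcripts the log2 ratio was -2.40 for Rsad2, against -3.68 with them, and -0.64 for Ifih1, against -1.53, and the list median was -0.16, over 8 genes measured, and 2 of the 3 highest PBS cells were such cells.

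The lists of glycolysis, NF-kB, MHC class I and interferon-gamma response genes had medians between -0.19 and 0.19. Gapdh was at 204 CPM in AKK and 327 CPM in PBS (0.625, 0.517 to 0.754) and Aldoa at 141 (AKK) and 207 CPM (PBS), while Ldha was at 181 (AKK) and 133 CPM (PBS). Irf1, a target of interferon-gamma, had a ratio of 1.71 (1.35 to 2.17), and 1.45 in NK cells. Tnf was lower, at 51.0 (AKK) and 117 CPM (PBS) (0.435, 0.303 to 0.618), and 1 PBS cell held 47 of its 88 UMIs. Its log2 ratio of -1.20 was -0.20 without the cells with myeloid transcripts, and that of Gapdh, -0.68, was -0.31.

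Of the genes with the largest ratios, those higher in AKK were Iglc1, S1pr1, Gm29243, Jchain, Cbfa2t3, Ly6c2, Cd200r2, Smc2, Igha and Hpn. Immunoglobulin transcripts were not particular to these cells: Igha was at 703 (AKK) and 145 CPM (PBS) in ILC1-like cells, 712 (AKK) and 113 CPM (PBS) in NK cells and 870.0 (AKK) and 124 CPM (PBS) in T cells, and Iglc1 and Jchain moved likewise. Cd200r2, a relative of the residency gene Cd200r1, was at 52.0 CPM in AKK, in 22 cells, and at 9.34 CPM in PBS, in 4 cells (5.57, 2.53 to 14.5), with 2.68 (AKK) and 3.06 CPM (PBS) in NK cells. Cbfa2t3, a corepressor, was at 38.5 (AKK) and 5.33 CPM (PBS) and had a ratio of 2.54 in NK cells.

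Those lower in AKK were Cdh1, Olfr56, Mettl15, Nr6a1os, Peli2, Armc9, Arhgap5, Phf10, Tnfsf11 and Clu. Cdh1, the adhesion molecule E-cadherin (chr8:106603351-106670246, plus strand), was at 31.8 CPM in AKK and 193 CPM in PBS (0.164, 0.109 to 0.241), with a UMI in 14 of 84 and 28 of 61 cells. NK cells held 34.8 (AKK) and 92.8 CPM (PBS) of Cdh1, a ratio of 0.375 (0.277 to 0.507), and T cells 24.9 (AKK) and 37.6 CPM (PBS). Tnfsf11, which encodes RANKL, was at 10.6 (AKK) and 37.3 CPM (PBS) and at 1.91 (AKK) and 13.3 CPM (PBS) in NK cells. Most of these genes rest on 22 to 33 UMIs in PBS and on 11 or fewer in AKK, and their intervals are correspondingly wide.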

How the data were processed

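The deposited files hold UMI counts per gene and barcode, not normalized, of 2 libraries of live CD45-positive cells from liver tumours (10x Genomics 3′ chemistry). Counting was done by the authors with Cell Ranger, version 7.1.0 per the file headers and 5.0.1 with mm10 per the submitters' processing notes; no source used here says whether intronic reads were counted. Of 32285 gene IDs, 99.6% were found in GENCODE M21 (GRCm38), the source of coordinates.

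Barcodes were chosen by the rule given in the opening; T cells had at least 3 CD3 UMIs and no Ncr1 or Klrb1c, and B cells at least 3 of Cd79a, Cd79b and Ms4a1. The members and gene lists were chosen with earlier results of these data known. Cell doublets were gated out at the sort, per the labels' protocols, ahead of the capture in droplets. Barcodes scored as doublets in the counts were removed only as an alternative.

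ILC1-like and NK sums were compared with edgeR 4.0.16 (R 4.3.3; TMM, filterByExpr, library block). The steps were tested on simulated data. AKK was set against PBS as a ratio of CPM with an exact conditional binomial 95% interval, over genes with at least 20 UMIs, and list medians used log2(CPM + 5). Alternatives covered DESeq2 1.42.0, scaling, filters, the rule's limits, Scrublet in Scanpy 1.11.5 cells with myeloid transcripts and NK cells low in residency genes; the last pair was chosen after the data were seen. Genes were named by a rule: the members of each list with the smallest adjusted p or the largest ratio, up to 6, and the 10 largest changes in each direction, of genes with at least 50 CPM (ILC1-like against NK) or at least 30 UMIs with no cell over 25% of them (AKK against PBS). Other list members are named to account for a list, and the split by granzymes was chosen after the values were seen. Some genes of the lists are not reported here.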

Additional observations from a re-analysis of the deposited data

Results flagged for a closer look

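For 12 of the 94 genes named for AKK against PBS, the AKK over PBS ratio of the ILC1-like cells lay on one side of 1 and that of the Eomes-positive NK cells on the other, each with a counting interval that left out 1. The share over all 7906 genes measured is not reported here, so 12 is no count for the whole series. With 1 library a group, the difference between the populations was not tested.

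Higher in AKK ILC1-like cells and lower in AKK NK cells were Inpp4b (1.17 and 0.586), Ly6c2 (6.30 and 0.658), Gata3, a transcription factor of several lymphoid lineages (1.49 and 0.776), B2m, the light chain of MHC class I (1.14 and 0.937), Gm29243 (10.5 and 0.581) and Hpn, a membrane serine protease (4.47 and 0.281).

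Lower in AKK ILC1-like cells and higher in AKK NK cells were Zeb2 (0.788 and 1.2), Tap1, a peptide transporter for MHC class I (0.590 and 1.59), Rsad2 (0.0778 and 3.68), Ifit1, an interferon-induced RNA-binding protein (0.316 and 4.38), Mettl15 (0.180 and 2.05) and Arhgap5 (0.249 and 4.20). Several of these ratios rest on few UMIs or few cells. In PBS ILC1-like cells, Gm29243 had 2 UMIs and Hpn 5, and 53 of 102 UMIs of Rsad2 lay in 1 cell. PBS NK cells held 3 UMIs of Ifit1 and 5 of Arhgap5. For Zeb2, 1 cell held 24.8% of the UMIs of the ILC1-like cells, and the direction of its ratio turned in 3 alternatives.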

How the results depend on the processing

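Each result was recomputed with 1 choice changed at a time. Against 398 genes higher and 485 lower in ILC1-like than in NK cells, DESeq2 gave 112 and 131, a fit with no library block 139 and 146, the rule without Il7r 179 and 261, and a residency sum of at least 3 gave 224 and 305. Genes named for this comparison kept their direction throughout, and 108 of their recomputed values missed the threshold while 814 did not, 33 of them with no library block, 23 with DESeq2 and 15 without Il7r. The cause was not tested. With 1 library left out, list medians spanned 1.02 to 1.91 for ILC1 genes, -2.49 to -1.76 for mature NK genes, -0.043 to 0.56 for type I interferon-stimulated genes and -0.54 to -0.046 for cell cycle genes. Without cells with myeloid transcripts, the medians were -0.25 for cytotoxic, -0.044 for type I interferon-stimulated and -0.45 for cell cycle genes. Against NK cells with at most 1 residency UMI, they were 1.11 for checkpoint, -0.24 for interferon-gamma response and 0.57 for type I interferon-stimulated genes. The cell cycle median was -0.52 both with no CD3 UMI allowed (-0.518) and with doublets removed (-0.524).

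Genes at least 2-fold higher and lower in AKK numbered 655 and 527 with at least 10 UMIs, and 110 and 68 with at least 50, against 342 and 263. The log2 ratio changed sign for Ccl4 without Il7r (-0.000952), and for Zeb2 with no CD3 UMI (0.15), without myeloid transcripts (0.25) and with cells weighted alike (0.00298). It also did with no CD3 UMI for Oasl1 (0.055), Atf3 (0.13) and Pclaf (-1.53), and without myeloid transcripts for Isg15 (1.28). The type I interferon-stimulated median, -0.90, was -0.16 without myeloid transcripts, -0.39 with doublets removed and -0.49 with cells weighted alike. No paired analysis was possible because each group has 1 library. Depth limits the share in the pool of ILC1-like and NK cells: 41 AKK and 21 PBS members were left at 3000 UMIs per cell.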
